A study of Mus musculus with 24 samples.

Results

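The mRNAs described here are those that the study listed as testis-specific and expressed in its cell lines and that were detected on every array of all 3 lines. Members were probes in any mRNA sheet of the study's supplementary table of testis-specific transcripts in the lines that carried the scanner flag for a signal well above background on all 3 arrays of F9, of GC-1 and of GC-2, with Rcc1, Stra8, Star and Zfp42 left out beforehand. Of these 4, Rcc1 alone met the detection criterion. The rule returned 104 probes for 101 gene symbols, out of 260 mRNA probes in the table and 60804 transcript probes on the array. All 104 stood in all 3 mRNA sheets. The testis and tissue arrays had chosen the table and the line arrays had set the detection, so levels in tissues, detection in lines and the distance between lines and testis are given as descriptions without a test. The differences between the lines were not used by the rule and were tested.

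The study used testis, liver, kidney, heart and brain from male ICR mice aged 8 weeks, and the F9, GC-1 and GC-2 mouse lines, all labelled male, with 3 arrays per group and no treatment. F9 is an embryonal carcinoma line grown on gelatin, GC-1 is an immortalised line with features of type B spermatogonia, and GC-2 is an immortalised line described as spermatocyte-like. Each line is a single established line, and the labels do not say whether its 3 samples were separate cultures, so that p-values measure the spread between these samples, which may be technical. Each level below is the log2 of the processed signal (intensity after the scanner software's background subtraction) minus the 75th percentile of the same array, so 0 marks that percentile. A level compares one probe between groups and does not rank the amounts of different transcripts.

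Dividing cells build a set of proteins that copy DNA, condense and separate chromosomes, form the spindle and cut the cell in 2. Many of these genes are switched on together late in the cell cycle and are quiet in organs whose cells rarely divide. In the adult testis, spermatogonia divide by mitosis and spermatocytes by meiosis, while spermatids make sperm proteins without dividing. Brain, heart, kidney and liver of adult mice hold few dividing cells.

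Of the 104 members, 47 probes for 46 genes fell into 5 cell-division lists. Cell-cycle control held Bora, Ccna2, Cdc25c, Cdkn2a, Melk, Pbk, Pkmyt1 and Skp2. The spindle, kinetochore and cytokinesis list took in Cenpk, Cenpn, Ckap2, Diap3, Dlgap5, Kif11, Kif15, Kif20b, Kif23, Nuf2, Nusap1, Oip5, Prc1, Racgap1, Trip13 and Troap. Chromosome condensation and cohesion held Cdca2, Cdca5, Espl1, Ncapg, Ncapg2, Sgol1, Smc2 and Top2a. DNA replication held Cdc45, Chaf1a, Chtf18, Dscc1, Gins2 and Tipin, and DNA damage and repair held Atr, Eme1, Fanci, Neil3, Parpbp, Xrcc2 and Rad18 with 2 probes.

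The remaining 57 probes covered other functions. The centrosome, nuclear envelope and pore list held Cdk5rap2, Cep95, Cep110, Lmnb1, Nup98, Nup205 and Tmem194, and the chromatin and transcription list held Atad2b, Baz1a, Baz2a, Cbfb, Eid3, Suv39h2 and Tbp. RNA processing and translation held Dis3, Dis3l, Eef1g, Igf2bp3, Isg20l2, Lsm2, Nol8, Rbm27, Rpl24, Urb2 and Gemin5 with 2 probes. Sperm proteins were Acr, Actl7a and Sept12. Signalling, apoptosis, transport and other functions took in Abhd13, Ap4e1, Bcl2l15, Clhc1, Dusp4, Efcab11, Espn, Fam118a, Hspbap1, Mgarp, Mum1l1, Pask, Ppp4r1, Rps6ka1, Serpinb7, Slc7a6, Smpd4, Tpm3, Ttll4 and Bcl2l11 with 2 probes. No role was assigned to 4930503E14Rik, D11Wsu47e, Gm15091, Gm20736, Gm4763, Gm4975 and Gm581. RefSeq (GRCm38.p6) matched all 101 symbols, 9 of them as older names, among them Cep110 (now Cntrl), Diap3 (Diaph3), Sgol1 (Sgo1), Sept12 (Septin12) and Gm4975 (Sgo2b). The lists went by the symbols of the study's table, so that Gm4975 was not counted with Sgol1. The genes lay on 21 chromosomes, with 10 on chromosome 8, 2 on X and 1 on Y. Genes that nearly all cells use, such as Rpl24, Eef1g, Lsm2, Tpm3 and Tbp, stood among the members, and which transcript their probes match is not given in the sources used here.

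The stretches below are the 120 bases before the RefSeq start of 7 members (GRCm38.p6, given 5′ to 3′ on the gene's strand). Top2a, Kif11 and Troap stand for the cell-division lists, Cdkn2a, Igf2bp3 and Bcl2l15 carried 3 of the largest differences between lines, and Actl7a is the sperm gene with the widest gap between testis and the lines. Capitals mark 4 kinds of letters searched on both strands: the cell cycle homology region (CHR, TTTGAA), the CCAAT box (CCAAT), 3 E2F-type sites (TTTGGCG as the first, TTTCCCG as the second, TTTCGCG as the last) and the TATA box (TATAAA). No 2 matches overlapped in these stretches.
Top2a promoter, chr11:99024190-99024309, minus strand: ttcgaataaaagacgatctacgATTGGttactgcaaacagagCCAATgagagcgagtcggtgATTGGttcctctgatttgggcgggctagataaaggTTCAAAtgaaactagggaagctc
Kif11 promoter, chr19:37376262-37376381, plus strand: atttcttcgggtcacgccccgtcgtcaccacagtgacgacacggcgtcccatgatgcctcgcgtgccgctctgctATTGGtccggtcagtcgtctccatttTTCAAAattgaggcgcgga
Troap promoter, chr15:99074853-99074972, plus strand: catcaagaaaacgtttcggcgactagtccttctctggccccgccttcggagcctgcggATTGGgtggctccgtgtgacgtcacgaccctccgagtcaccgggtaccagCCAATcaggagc
Cdkn2a promoter, chr4:89294620-89294739, minus strand: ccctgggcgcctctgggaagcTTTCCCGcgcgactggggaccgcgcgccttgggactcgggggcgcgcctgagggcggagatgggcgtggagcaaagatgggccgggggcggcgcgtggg
Igf2bp3 promoter, chr6:49214955-49215074, minus strand: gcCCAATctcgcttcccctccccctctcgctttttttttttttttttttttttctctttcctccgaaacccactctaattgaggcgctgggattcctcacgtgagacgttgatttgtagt
Bcl2l15 promoter, chr3:103832576-103832695, plus strand: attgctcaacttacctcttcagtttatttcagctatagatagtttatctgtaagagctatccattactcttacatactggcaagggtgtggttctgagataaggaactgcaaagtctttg
Actl7a promoter, chr4:56743302-56743421, plus strand: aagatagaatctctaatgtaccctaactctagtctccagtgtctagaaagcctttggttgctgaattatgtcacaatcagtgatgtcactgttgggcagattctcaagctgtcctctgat

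The Top2a stretch held 3 CCAAT boxes, 98, 78 and 58 bases before the start, and 1 CHR 23 bases before it. Kif11 held 1 CCAAT box 45 bases and 1 CHR 19 bases before its start, and Troap held 2 CCAAT boxes, 62 and 12 bases before its start. One E2F-type match lay 99 bases before the Cdkn2a start shown, which is the first of 2 RefSeq starts for a gene whose transcripts encode p16Ink4a and p19Arf. Igf2bp3 held 1 CCAAT box 118 bases before its start, and no searched letters were found in the Bcl2l15 and Actl7a stretches. Over stretches of the same length before the starts of 27025 genes, 22.1% held a CCAAT box, 7.24% a CHR, 6.76% a TATA box, and 0.636%, 1.42% and 0.326% the first, second and last E2F-type site. Promoter windows were held for 80 of the 101 genes (79.2%), under the minimum of 80% set for a property over a set of genes, so that a count of motifs over the members would be void and was not made. These matches describe letters and do not show binding.

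Arrays differed in brightness, with the 75th percentile at an intensity of 30.7 on liver replicate 2 and 384 on testis replicate 1, and no transcript probe was saturated. Replicates of testis and the lines correlated at r of 0.968 to 0.997 over the 19294 probes well above background on all 12 of these arrays. GC-2 replicate 1 stood apart, with 24 members over 1 log2 unit from the mean of the other replicates, against 12 for F9 replicate 1 and 1 to 4 for each other line array. Replicate 1 of every group shared a slide, and replicates 2 and 3 of the lines shared another. Replicates 2 and 3 of testis lay on a different slide from those of the lines. For these replicates, lines and testis differed by slide as well as by group, and the part of the slide was not tested. Of 60 marker genes in 10 lists, 15 could be identified in the table. The table held only mRNAs that the study had chosen as detected in testis, absent from the other tissues and expressed in a line. Among embryonal carcinoma markers, Trim71, Zfp42, Zscan10 and Fbxo15 stood at 6.49 ± 0.05, 4.65 ± 0.39, 3.68 ± 0.11 and 3.26 ± 0.22 in F9 (SD, n = 3) and were well above background on no array of GC-1 or GC-2. All 9 identified germ cell markers were on all 3 testis arrays, which follows from that choice, and their detection varied in the lines. Acr, Actl7a and Sept12, themselves members, were on every line array, Piwil2 and Tex15 on all 3 arrays of F9 and none of GC-1 or GC-2, and Ddx43 on all 3 of F9 and of GC-2 and none of GC-1. Spata9 was on no F9 array, 2 of GC-1 and 3 of GC-2, Dnah8 on 3, 2 and 1, and the 2 Tex14 probes on 3, 3 and 0 and on 3, 2 and 1. The Sertoli cell marker Gata1 was on 3, 2 and 0 arrays and the Leydig cell marker Star on 1, 3 and 3 arrays of F9, GC-1 and GC-2. No marker of brain, heart, kidney, liver, fibroblasts or red blood cells was identified, so that their part in the levels was not tested. Markers that met the study's own detection call in brain, heart, kidney or liver could not enter such a table. Flags on 1 or 2 arrays did not bar entry: Trim71 was well above background on 2 brain arrays and Gata1 on 2 heart arrays.

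**Figure D1:**
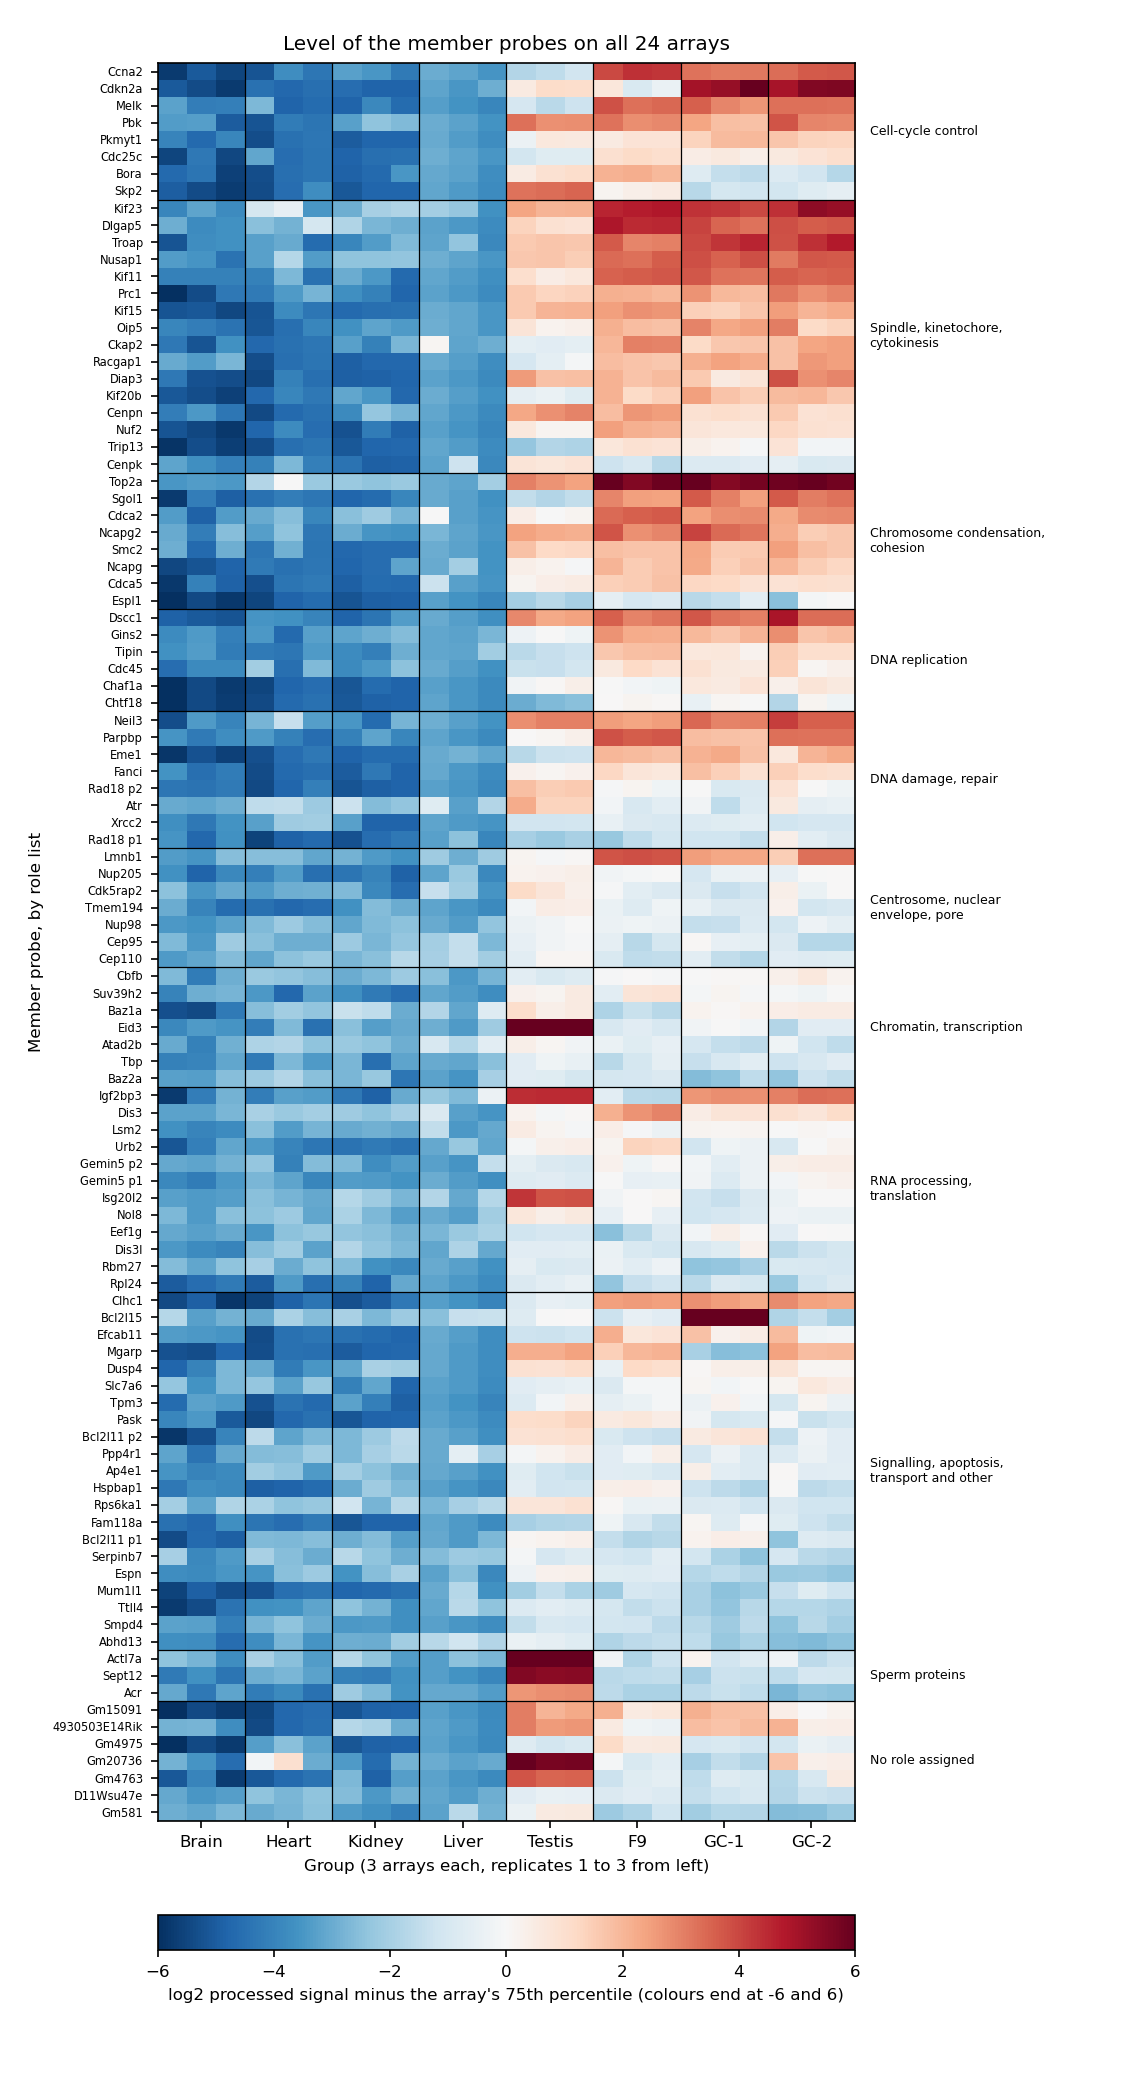
Level of each member probe reported here (rows, grouped by role list) on each of the 24 arrays (columns, 3 per group), as log2 processed signal minus the array's 75th percentile; p1 and p2 mark 2 probes of one gene. Warm colours stand mostly in testis and the 3 lines, and Actl7a, Eid3, Sept12 and Gm20736 are dark red in testis alone.

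All 104 members were well above background on all 3 testis arrays, and no member was so on all 3 arrays of brain, heart, kidney or liver. Fainter or partial signal was common, since 68 members were well above background on at least 1 array of these tissues and 36 on none. By tissue, 50 members were flagged on 1 or 2 arrays of brain, 39 of heart, 36 of kidney and 8 of liver. Testis levels ran from -2.71 for Chtf18, which loads the replication clamp, to 8.32 for Actl7a, an actin-like protein of the acrosome. With the lowest signal well above background put in place of dim values, Actl7a was at least 783-fold higher in testis than in the nearest other tissue, Eid3 at least 515-fold, Sept12 at least 109-fold and Gm20736 at least 83.0-fold. The median member was at least 2.84-fold higher, 28 members were at least 5-fold higher, and for 11 members, Ccna2, Melk and Sgol1 among them, testis did not exceed that limit. Liver set the limit for 102 of the 104, and its arrays had the lowest 75th percentiles of the series.

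Members split by function in how their levels in the lines stood to testis. In bulk testis, fewer cells of a type and less RNA per cell cannot be told apart. The scaling matters here, because the median of the 19294 commonly detected probes itself lay above testis by 1.52, 1.44 and 1.45 on the log2 scale in F9, GC-1 and GC-2, and the members are set beside that shift. Over all members the median difference was 0.09, 0.12 and 0.14, and 29, 29 and 27 members exceeded the shift in F9, GC-1 and GC-2. With the 3 arrays of a line all above the 3 of testis, 44 (42.3%), 44 (42.3%) and 46 (44.2%) members were counted in F9, GC-1 and GC-2, against 73%, 73.1% and 72.4% of the commonly detected probes. All below were 32 (30.8%), 41 (39.4%) and 39 (37.5%), against 14.5%, 14.8% and 14%. These counts hinge on the scaling: with the 75th percentile taken over probes detected on all 24 arrays, 24, 24 and 19 lay above and 71, 68 and 70 below. The commonly detected probes moved too, to 36.6%, 37% and 34.4% above and 40.3%, 39.7% and 39.9% below. With the constants behind the study's normalised columns, 23, 26 and 22 lay above and 65, 64 and 58 below. Of the commonly detected probes, 36.6%, 43.2% and 42.9% then lay above and 33.7%, 30.8% and 28.3% below. The number beyond the shift of the commonly detected probes ranged from 27 to 31 over the scalings and background corrections tried.

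The cell-division probes pooled had a median near that shift, with single lists above and below it, and the other members had a median below it. Among the 47 cell-division probes, F9, GC-1 and GC-2 had medians of 1.59, 1.45 and 1.53, and 24 exceeded the shift in each line. The 57 other members had medians of -0.51, -0.70 and -0.78, with 5, 5 and 3 beyond it. DNA replication had the highest list medians in F9 and GC-2, at 2.35 and 1.99 (1.93 in GC-1), and the spindle list stood at 1.91, 2.10 and 1.92. Chromosome condensation and cohesion had 1.40, 1.47 and 1.22, cell-cycle control 0.85, 1.39 and 1.41, and DNA damage and repair 0.40, 0.60 and 0.87. Chromatin and transcription, RNA processing, the centrosome and nuclear pore list, and signalling and other functions had medians between -0.95 and -0.17 in every line.

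**Figure D2:**
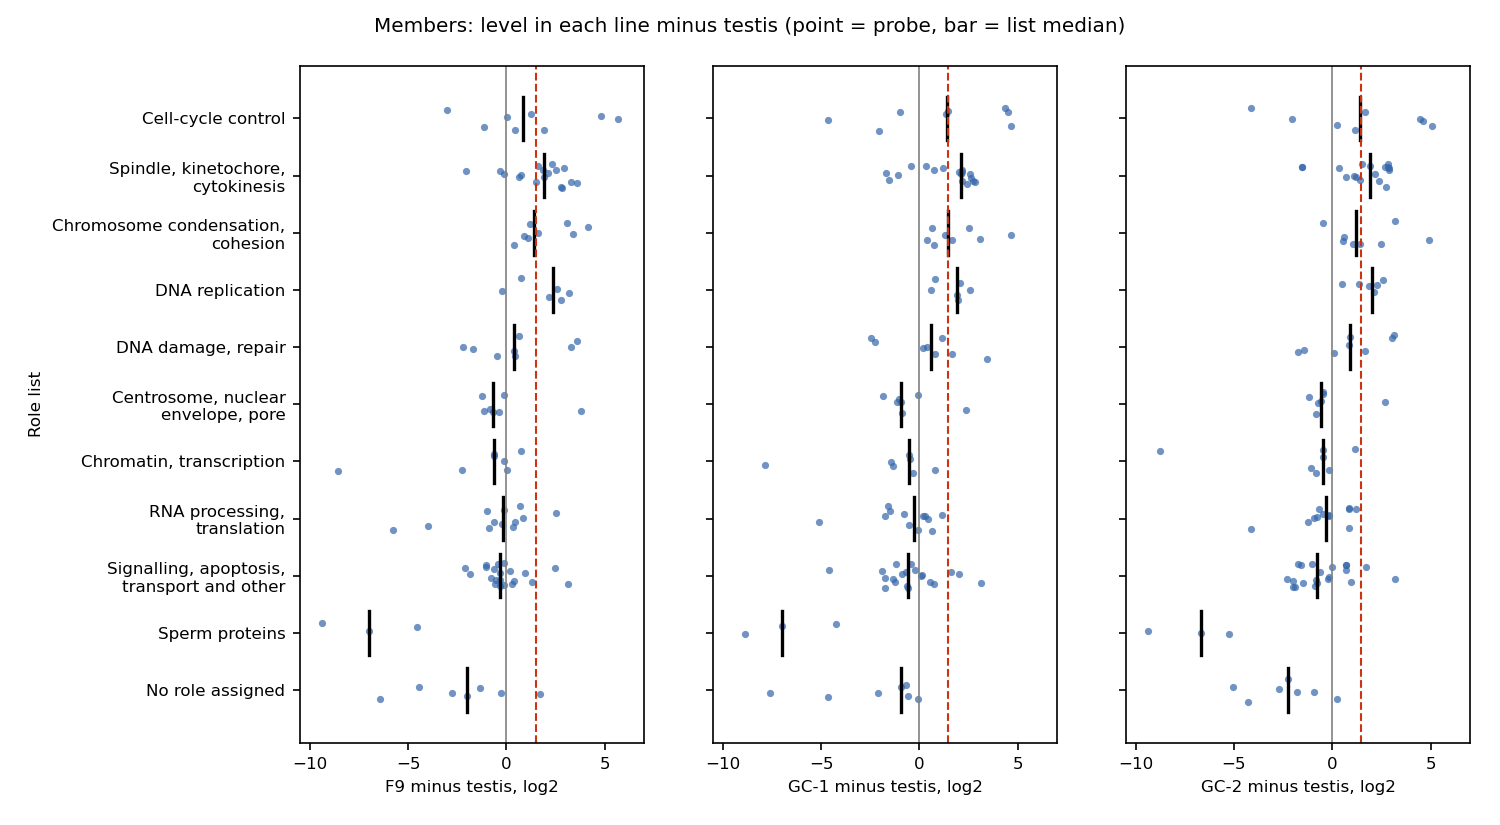
Each point is a member probe, placed by its fitted level in F9, GC-1 or GC-2 minus testis (log2 scale, x axis) and by role list (y axis); black bars are list medians, the grey line is 0 and the dashed red line is the median of the 19294 commonly detected probes (1.52, 1.44 and 1.45). The sperm proteins lie far to the left in all 3 lines, with list medians of -7.00, -7.01 and -6.67, and the replication and spindle medians lie to the right of the dashed line.

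Ccna2, the cyclin of S phase and entry into mitosis, had the widest excess of the lines over testis. Testis arrays read -1.74, -1.55 and -1.16, the F9 arrays 3.94, 4.40 and 4.31, the GC-1 arrays 3.27, 3.10 and 3.18 and the GC-2 arrays 3.34, 3.66 and 3.74. No line array came near a testis array, and the mean of the lines exceeded testis by 5.14. Melk, a kinase of dividing and stem-like cells, read -1.03, -1.64 and -1.25 in testis and lay between 2.67 and 3.82 on the 9 line arrays, an excess of 4.59. Sgol1, the shugoshin that guards centromeric cohesion, read -1.49, -1.77 and -1.47 in testis and 2.40 to 3.69 in the lines, an excess of 4.58. These 3 genes were also among those whose testis level did not exceed the limit set by liver.

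Eme1, a partner of the Mus81 nuclease, Clhc1 and Top2a, which untangles DNA, followed with excesses of 3.26, 3.15 and 3.11. Eme1 stood at -1.40 ± 0.22 in testis, and F9, GC-1 and GC-2 had 1.89 ± 0.12, 2.04 ± 0.26 and 1.65 ± 0.88 (SD, n = 3). Its wide spread in GC-2 came from replicate 1 at 0.64, against 2.05 and 2.26. Top2a stood at 2.71 ± 0.30 in testis and at 5.81 ± 0.22, 5.77 ± 0.31 and 5.88 ± 0.11 in F9, GC-1 and GC-2. The 3 lines lay within 0.11 of each other for Top2a, less than the SD of replicates in F9 and GC-1 and about that in GC-2.

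The sperm proteins lay at the other end. Actl7a read 8.33, 8.28 and 8.36 in testis, -0.20, -1.80 and -1.24 in F9, 0.20, -1.14 and -0.77 in GC-1 and -0.28, -1.57 and -1.28 in GC-2. The mean difference of the lines from testis was -9.22 on the log2 scale, and replicate 1 was the highest array of each line. Sept12, a septin of the sperm tail's annulus, stood at 5.47 ± 0.06 in testis against -1.53 ± 0.07, -1.54 ± 0.39 and -1.20 ± 0.29 in the lines, and Acr, the acrosomal protease acrosin, at 2.76 ± 0.11 against -1.77 ± 0.19, -1.48 ± 0.13 and -2.52 ± 0.20. Eid3, a component of the Smc5/6 complex, read 7.72 ± 0.10 in testis and between -1.77 and -0.04 in the lines, a mean difference of -8.40. Gm20736 and Gm4763, without an assigned role, differed by -6.36 and -4.48, and Gm4763 in GC-2 spread from -1.72 to 0.56.

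The same genes were compared between the lines to ask where germ cell-related lines of different kinds differ in testis mRNAs they all express. A member was called at an adjusted p of 0.05 or less (limma, Benjamini-Hochberg over all 60804 probes) and a difference of at least 2-fold. By this rule 41 members differed between at least 1 pair of lines and 63 in none. The share of all probes called in at least 1 pair was not counted, so that 41 has no background here. In either direction 31.7%, 20.2% and 12.5% of the members were called for F9 against GC-1, F9 against GC-2 and GC-1 against GC-2, beside 27.6%, 26.4% and 11.3% of the commonly detected probes and 20.3%, 19.8% and 9.39% of all probes. F9 exceeded GC-1 at 23 members (22.1%), against 15.3% of the commonly detected probes and 10.7% of all probes, and GC-1 exceeded F9 at 10 (9.62%), against 12.3% and 9.67%. Between F9 and GC-2, 12 members were higher in F9 (11.5%, against 13.7% and 10.8%) and 9 in GC-2 (8.65%, against 12.7% and 9%). GC-1 exceeded GC-2 at 6 (5.77%, against 5.23% and 5.14%) and GC-2 exceeded GC-1 at 7 (6.73%, against 6.02% and 4.25%). All but F9 over GC-1 were within 5 percentage points of both backgrounds. The balance of directions hinged on the scaling, since with the constants behind the study's normalised columns F9 exceeded GC-1 at 12 members and GC-1 exceeded F9 at 13, F9 exceeded GC-2 at 5 and GC-2 exceeded F9 at 13. With median scaling the split between GC-1 and GC-2 was 5 against 9. Without GC-2 replicate 1, the array that stood apart, 16 members were called between F9 and GC-2 in place of 21, and 17 between GC-1 and GC-2 in place of 13, 10 of the 13 among them.

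The share called in the cell-division lists was set beside that of the other members without a test of the difference. Between F9 and GC-1, 12 were higher and 3 lower in F9 (31.9% called, against 31.6% of the other members). For F9 and GC-2 the counts were 6 and 5 (23.4% against 17.5%), and for GC-1 and GC-2 they were 1 and 3 (8.51% against 15.8%).

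**Figure D3:**
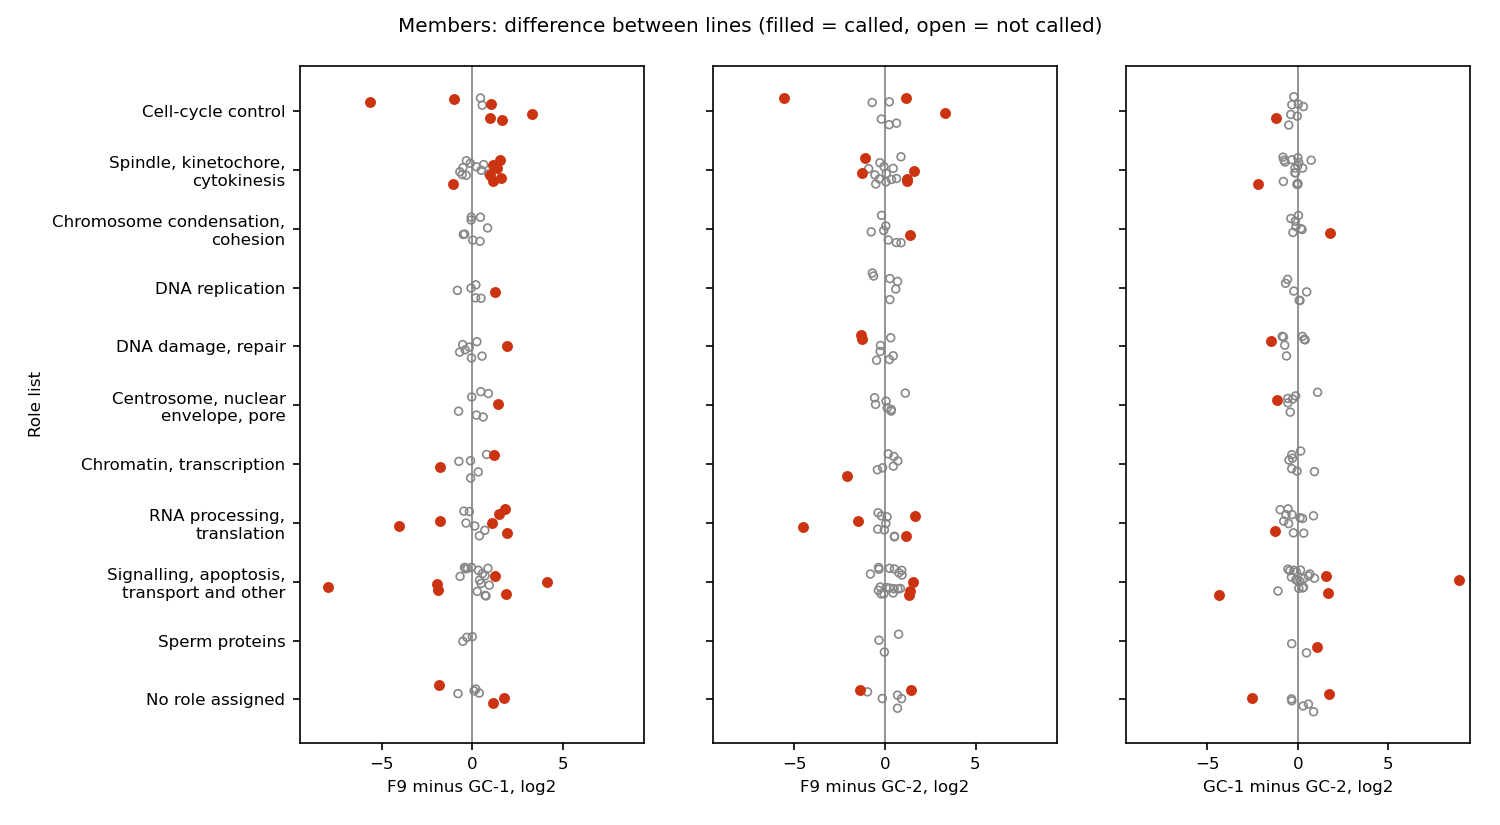
Difference between 2 lines (log2 scale, x axis) for each member probe by role list (y axis), with filled red points for members called by limma at an adjusted p of 0.05 and 2-fold, and open grey points for the rest. The points farthest from 0 are Bcl2l15 (-7.95 in F9 minus GC-1 and 8.88 in GC-1 minus GC-2) and Cdkn2a (-5.62 and -5.59 in F9 minus the GC lines), and most of the 104 members lie close to 0 in each pair.

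Cdkn2a, the locus of 2 tumour suppressors that hold the cell cycle, separated F9 from both GC lines. Its F9 arrays read 0.67, -0.92 and -0.42, the GC-1 arrays 4.97, 5.24 and 5.96 and the GC-2 arrays 4.93, 5.57 and 5.59, with testis at 0.52, 1.10 and 1.06. All 6 GC arrays lay above all F9 and testis arrays. The fitted difference of F9 minus GC-1 was -5.62 ± 0.40 (SE, 49.0-fold, limma adjusted p = 7.46e-07) and of F9 minus GC-2 was -5.59 ± 0.40 (48.2-fold, adjusted p = 7.47e-07). GC-1 and GC-2 differed by 0.03 in their means, less than either SD.

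Bcl2l15, a member of the Bcl-2 family, was set apart by GC-1 alone. The GC-1 arrays read 6.73, 7.32 and 7.36, those of F9 -1.30, -0.47 and -0.68, those of GC-2 -1.79, -1.41 and -2.02 and those of testis -0.76, -0.04 and 0.04. The GC-1 arrays cleared all others by more than 6 log2 units. GC-1 exceeded F9 by 248-fold (F9 minus GC-1 -7.95 ± 0.31, SE, limma adjusted p = 5.12e-09) and GC-2 by 470-fold (8.88 ± 0.31, adjusted p = 7.94e-09). Its relative Bcl2l11, which encodes the death activator Bim, had 2 member probes, of which both were highest in GC-1 among the lines. Unlike Bcl2l15, both were lower by mean in F9 than in GC-2. In testis probe 1 stood at 0.21 and probe 2 at 0.93, so that GC-1 did not exceed testis on probe 2. Probe 1 stood at 0.30 ± 0.09 in GC-1, -1.63 ± 0.20 in F9 and -1.36 ± 0.93 in GC-2, and probe 2 at 0.71 ± 0.16, -1.17 ± 0.24 and -0.82 ± 0.57 (SD, n = 3). GC-1 exceeded F9 by 3.80-fold and 3.69-fold (limma adjusted p = 0.00186 and 0.000269) and GC-2 by 3.16-fold and 2.88-fold (adjusted p = 0.0108 and 0.00305). GC-2 replicate 1 was the lowest GC-2 array on both probes, at -2.44 and -1.44.

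Igf2bp3, an RNA-binding protein of early development, was low in F9 only. F9 arrays read -0.62, -1.60 and -1.66, GC-1 arrays 2.62, 2.80 and 2.73, GC-2 arrays 3.04, 3.35 and 3.30 and testis arrays 4.43, 4.48 and 4.46, with no overlap between any groups. F9 was 16.1-fold below GC-1 (-4.01 ± 0.27, SE, limma adjusted p = 4.14e-07) and 23.0-fold below GC-2 (-4.52 ± 0.27, adjusted p = 1.36e-07). Mgarp, a mitochondrial protein, was low in GC-1 only, at -1.92, -2.58 and -2.45 against 1.43, 2.01 and 2.08 in F9 and 2.42, 1.84 and 1.88 in GC-2. On this scaling the testis arrays of Mgarp, at 2.19, 2.18 and 2.40, fell among those of GC-2. Commonly detected probes were shifted by 1.45 in GC-2 minus testis, so that this place hinges on the scaling. The GC-1 deficit was 17.8-fold against F9 (4.15 ± 0.26, limma adjusted p = 2.74e-07) and 20.6-fold against GC-2 (-4.36 ± 0.26, adjusted p = 4.97e-07). Mgarp in GC-1 was also close to the detection limit, 0.24 log2 units above the lowest flagged signal on replicate 2.

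Bora, which helps Aurora A to activate Plk1 before mitosis, was the leading cell-division gene in F9. Its F9 arrays read 2.07, 2.20 and 1.93, against -0.79, -1.41 and -1.58 in GC-1, -0.80, -1.15 and -1.71 in GC-2 and 0.51, 0.89 and 1.06 in testis. On this scaling testis lay between F9 and the GC lines without overlap. The mean excess of F9 over testis was smaller than the shift of 1.52 of the commonly detected probes, so that this order hinges on the scaling. F9 exceeded GC-1 by 10.0-fold (3.33 ± 0.29, limma adjusted p = 3.83e-06) and GC-2 by 9.78-fold (3.29 ± 0.29, adjusted p = 4.1e-06). Dis3, a nuclease of the RNA exosome, stood at 2.59 ± 0.43, 0.68 ± 0.21 and 0.92 ± 0.19 in F9, GC-1 and GC-2 and was called against both GC lines (3.77-fold and 3.18-fold, limma adjusted p = 0.000101 and 0.000317). Bora and Dis3 belonged to 10 members higher in F9 than in both GC lines, and 5 members were lower in F9 than in both. The matching shares of all probes were not counted, so that 10 and 5 are not read as a trait of the members. These comparisons share the F9 arrays.

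Other members moved in 1 pair or split the GC lines. Parpbp, an inhibitor of homologous recombination, stood at 3.73 ± 0.08, 1.78 ± 0.05 and 3.27 ± 0.02 in F9, GC-1 and GC-2, so that GC-1 was 3.85-fold below F9 and 2.81-fold below GC-2 (limma adjusted p = 5.83e-06 and 0.000137). Rbm27, an RNA-binding protein, showed the same low GC-1 value, -2.23 ± 0.23 against -0.43 ± 0.18 in F9 and -0.95 ± 0.05 in GC-2 (3.49-fold and 2.43-fold, adjusted p = 3.91e-05 and 0.0014). Diap3, a formin that builds actin filaments, read 1.58, 0.56 and 0.77 in GC-1 and 3.80, 2.72 and 2.94 in GC-2, with replicate 1 the highest in both lines. GC-2 exceeded GC-1 by 4.55-fold (-2.19 ± 0.35, limma adjusted p = 0.00136). Ncapg2, a condensin II subunit, ran the other way, at 3.56 ± 0.43 in GC-1 and 1.77 ± 0.37 in GC-2 (3.46-fold, adjusted p = 0.00285).

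Pbk, a mitotic kinase, was 2.31-fold higher in GC-2 than in GC-1 (limma adjusted p = 0.0205), a call that was lost without GC-2 replicate 1 (adjusted p = 0.0559) and without GC-1 replicate 2 or 3. Gm20736 on the Y chromosome had a different level in each line, -0.56 ± 0.40, -1.73 ± 0.26 and 0.80 ± 0.80 in F9, GC-1 and GC-2. GC-2 exceeded GC-1 by 5.78-fold (limma adjusted p = 0.00067) and F9 by 2.57-fold (adjusted p = 0.0173). The second of these fell to 0.90 on the log2 scale, under 2-fold, without GC-2 replicate 1, which read 1.72 against 0.30 and 0.39. Gm15091 was 3.23-fold and Acr 2.05-fold higher in GC-1 than in GC-2 (adjusted p = 0.0145 and 0.00482). The Gm15091 call was lost without GC-1 replicate 1 or GC-2 replicate 2, and the Acr call was lost in 8 of 27 alternatives. The Acr difference of 1.04 on the log2 scale came to 0.96 without GC-1 replicate 2, 0.93 without GC-2 replicate 1, 0.98 without slide 1, 0.94 with quantile normalization, 0.89 with median scaling and 0.37 with normexp.

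The leading differences held further members of F9 against GC-2, of which Baz1a, Eef1g, Gm4975, Pask and Hspbap1 were also called the same way against the other GC line. Baz1a, a chromatin remodelling subunit, read -1.86, -1.35 and -1.66 in F9 and 0.41, 0.50 and 0.48 in GC-2, a 4.25-fold difference (limma adjusted p = 2.69e-05). Neil3, a DNA glycosylase, was 2.49-fold and Eef1g, a translation elongation subunit, 2.76-fold lower in F9 than in GC-2 (adjusted p = 0.000936 and 0.00977). Higher in F9 than in GC-2 were the actin bundler Espn at 2.89-fold, Gm4975 at 2.70-fold and the kinase Pask at 2.62-fold (adjusted p = 0.000175, 0.00099 and 0.00838). Espn and Neil3 were called against GC-2 alone. Against GC-1, Hspbap1 was 3.69-fold higher in F9 and 4930503E14Rik 3.55-fold lower (limma adjusted p = 0.00182 and 0.00658).

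**Figure D4:**
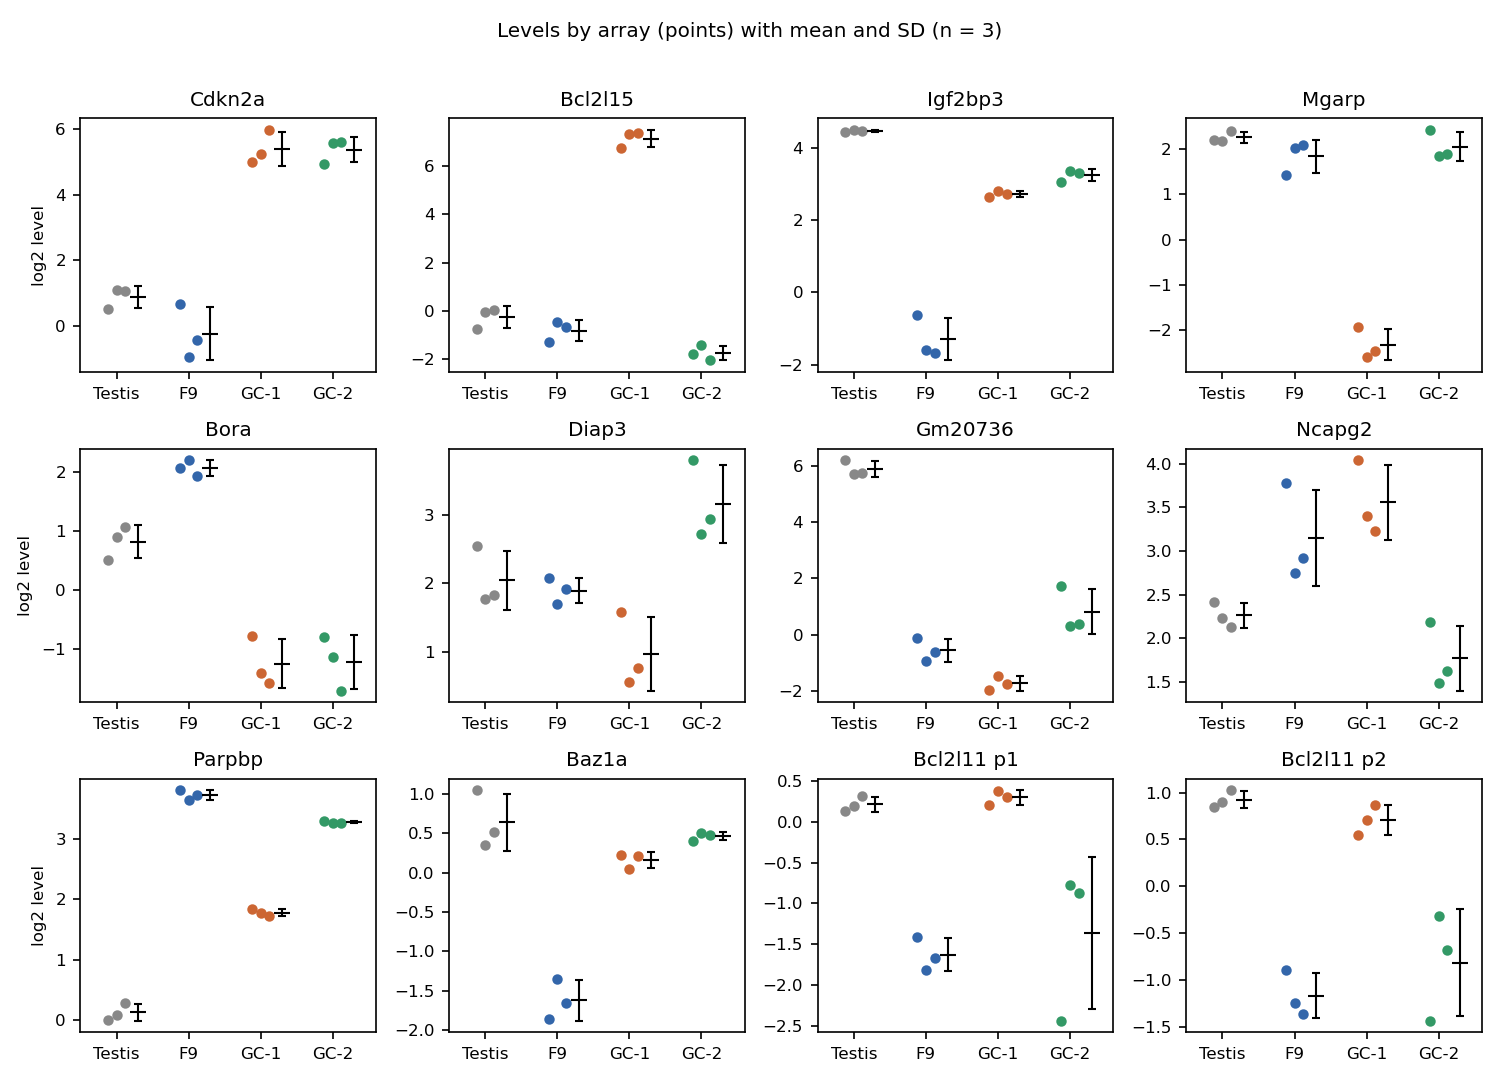
Levels (log2 processed signal minus the array's 75th percentile, y axis) of 12 member probes on each array of testis, F9, GC-1 and GC-2 (points, replicates 1 to 3 from left), with the mean and SD of the 3 arrays in black; y axes differ between panels. Cdkn2a is high in both GC lines, Bcl2l15 in GC-1 alone, Igf2bp3 is low in F9 alone and Mgarp in GC-1 alone.

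Other named members were mostly outside the calls, as were most members. Kif23, the motor of the central spindle, stood at 4.69 ± 0.12, 4.18 ± 0.21 and 5.00 ± 0.52 in F9, GC-1 and GC-2 and was called in no pair, like Melk, Sgol1, Clhc1, Top2a and Eme1, although without GC-2 replicate 1 Kif23 was called between GC-1 and GC-2. The same held for Dscc1 and Gins2 of the replication list, with means of 3.25 to 3.88 and 1.87 to 2.37, and for Cbfb and Suv39h2 of the chromatin list, with means of -0.05 to 0.37 and -0.15 to 0.34. Dlgap5, a spindle protein, was called in 1 pair, with 4.62 ± 0.21 in F9 and 3.60 ± 0.39 in GC-1 (limma adjusted p = 0.00855). Ccna2 was higher in F9 (4.21 ± 0.24) than in GC-1 (3.18 ± 0.09), and so was Lmnb1, the nuclear lamin B1, at 3.81 ± 0.04 against 2.40 ± 0.11, while Nup205 was called in no pair. A missed threshold does not show equal levels.

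For genes with 2 member probes, the differences of each probe were set side by side. The lines exceeded testis by 0.53 and 0.81 on the 2 Gemin5 probes, and neither was called in any pair of lines. Both values lay below the shift of 1.44 to 1.52 of the commonly detected probes, so that their sign hinges on the scaling. The Rad18 probes, for a ubiquitin ligase of damage tolerance, disagreed in the distance of the lines from testis. Rad18 probe 2 read 1.63 ± 0.17 in testis and -0.06 ± 0.22, -0.61 ± 0.50 and 0.19 ± 0.58 in F9, GC-1 and GC-2, so that the lines lay below testis by a mean difference of -1.79. Rad18 probe 1 read -2.06 ± 0.16 in testis and -1.64 ± 0.59, -1.26 ± 0.14 and -0.39 ± 0.65, a mean difference of 0.96, and it alone was called between F9 and GC-2. The 0.96 also lay below that shift, so that its sign hinges on the scaling, and no single direction is given for this gene.

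Some members shared their locus with a noncoding transcript that had its own probe in the study's tables. Of 12 such probes, those at Diap3, Dlgap5 and Pbk were well above background on all 9 line arrays and lay at members called in at least 1 pair. At Diap3 the noncoding uc007uuc.1 stood at 3.18 ± 0.08, 1.90 ± 0.42 and 4.21 ± 0.41 in F9, GC-1 and GC-2 (SD, n = 3), and GC-1 minus GC-2 was -2.31 ± 0.27 (SE, limma adjusted p = 0.000109) beside -2.19 ± 0.35 for the mRNA. For F9 minus GC-1 the noncoding probe alone was called (1.28 ± 0.27, adjusted p = 0.00349, beside 0.93 ± 0.35). At Pbk, ENSMUST00000152130 differed by -1.24 ± 0.26 in that pair (adjusted p = 0.00763) beside -1.21 ± 0.30. At Dlgap5, uc011zjn.1 was higher in F9 than in GC-1 by 1.04 ± 0.29 (adjusted p = 0.0203) beside 1.02 ± 0.24. For F9 minus GC-2 it was called without its mRNA (1.41 ± 0.29, adjusted p = 0.00354, beside 0.88 ± 0.24), and GC-1 minus GC-2 was 0.37 and -0.13. The Mum1l1 noncoding probe, on 3 of the 9 line arrays, was called lower in F9 and in GC-1 than in GC-2 (-2.03 ± 0.29 and -1.42 ± 0.29, adjusted p = 0.000251 and 0.00723), and its mRNA in neither. Whether a noncoding probe also matches the mRNA is not given in the sources used here. At Dscc1, by contrast, ENSMUST00000143523 was lower in F9 than in GC-1 by -1.77 ± 0.53 (adjusted p = 0.0285) with the mRNA at -0.06 ± 0.40. That noncoding probe was well above background on 2 of the 3 F9 arrays and spread widely there (-1.32 ± 1.34, SD, n = 3). The noncoding probe at Ttll4 was called higher in F9 than in GC-1 without its mRNA, and the antisense uc008vdo.1 at Rps6ka1 was called in no pair, like its mRNA.

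Members just inside the rule were dim. Abhd13 lay 0.06 and Gm581 0.15 log2 units above the lowest flagged signal on GC-2 replicate 2, and Acr 0.25 above it on F9 replicate 3. Just outside, 15 table mRNAs missed the flag on 1 line array, among them Kif14, a mitotic kinesin, on F9 replicate 2, G2e3 and Poc1b on F9 replicate 3, and Cep72 and Mdm1 on F9 replicate 2. Some of those had signals up to 0.21 above the lowest flagged value of the array, as with Sema3f. The flag for a positive and significant signal, in place of well above background, would have given 184 members.

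A further 16 genes of the table were looked up under a wider heading of cell division and centrosome, among them Kif14, Wdr62, Cep128, Arhgap19 and Tex14. All of them fell short of the rule, which follows from their choice, since member genes were already in the role lists. This heading is wider than the 5 cell-division lists, which left out the member genes of the centrosome. Of their 19 probes, 6 were well above background on all 3 arrays of F9, 11 of GC-1 and 13 of GC-2. Since missing detection in at least 1 line chose these probes, their differences between lines carry no test. Tex14, which keeps germ cell bridges open, had probe means of 2.57 and -0.51 in F9, -2.69 and -2.32 in GC-1, and -3.17 and -4.73 in GC-2.

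Set beside the other classes of the table, the members had higher medians of line minus testis. The 58 mRNAs on in F9 but in neither GC line had a median of -0.997 for F9 minus testis, with 18 above the testis mean. For the 36 on in both GC lines but not in F9, the median was -1.74 for GC-1 and -1.74 for GC-2 minus testis, with 2 above the testis mean in each. Among all members 54, 53 and 53 lay above the testis mean in F9, GC-1 and GC-2, with medians near 0. The classes also differed in testis, with median levels of 0.18 for the members, 1.47 for the F9 class and -0.04 for the GC class. In F9 itself the medians were 0.005 for the members and -0.42 for the F9 class. In GC-1 they were 0.07 for the members and -1.81 for the GC class, and in GC-2 0.18 and -1.90. The differences between classes follow in part from the detection rule itself and carry no test.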

How the data were processed

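RNA was labelled with Cy3 and hybridised to 24 one-colour arrays. The authors deposited Agilent Feature Extraction output with an intensity and flags per spot, and a value table of intensities for 60804 transcript probes that matched the processed signal within a relative difference of 0.000228. Neither was normalised between arrays. The files pair no symbols with probes, so that names were those of the study's table. That table's normalised columns served only to read each array's scaling constant as an alternative; its folds and p-values were not used.

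The log2 processed signal minus each array's 75th percentile was fitted with limma 3.58.1 (lmFit, eBayes, R 4.3.3) on the 12 arrays of testis and the lines, 1 coefficient per group, Benjamini-Hochberg over 60804 probes. Calls needed an adjusted p of 0.05 or less and 2-fold. Line against testis and tissue levels were not tested. One spindle-list member was kept in all counts and is not reported here by name. The script was checked on simulated data. Members, lists and alternatives were chosen with earlier results of these data known. Named were the 6 largest called, non-overlapping differences per direction and pair, the 6 highest and lowest line-minus-testis values, the 2 highest line levels per list, genes with 2 probes and members at the edge of the rule. Bcl2l11 probes 1 and 2 are ASMM10P000074 and ASMM10P009769, and Rad18 probes 1 and 2 are ASMM10P033616 and ASMM10P033618; Tex14, Diap3 and the other genes named outside this rule were chosen after their values were seen.

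The deviations of same-numbered samples of 2 lines correlated at 0.127 to 0.541 in the 9 pairs. Replicate 2 of one line and replicate 3 of another also correlated, at 0.0945 to 0.363. Replicate 1 of each line was on another slide than replicates 2 and 3, so that pairing by number and slide cannot be told apart. The main fit used no pairing, and a replicate block was an alternative. Alternatives were other scalings, normexp (on the median signal with an offset of 50, the mean signal not being in the files used here), the value table, a filter on dim probes, other array sets, blocks, a 5-fold limit and leaving out each array; leaving out slide 1 was added after seeing the data. Precision is limited by having 3 arrays a group. Figures were drawn with matplotlib 3.10.9.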

Additional observations from a re-analysis of the deposited data

How the results depend on the processing

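In the order F9 over GC-1, GC-1 over F9, F9 over GC-2, GC-2 over F9, GC-1 over GC-2 and GC-2 over GC-1, the counts of called members were 23, 10, 12, 9, 6 and 7. The normexp correction gave 10, 6, 4, 6, 3 and 5, the constants behind the study's normalised columns 12, 13, 5, 13, 5 and 7, and a limit of 5-fold 2, 3, 1, 2, 1 and 2. On slide 1 alone, with 1 array per line and no test, 19, 10, 20, 14, 11 and 11 members differed by 2-fold. Leaving out 1 array gave 16 to 23, 8 to 11, 10 to 14, 6 to 10, 5 to 8 and 5 to 9. The 6 for GC-2 over F9 came without F9 replicate 2, F9 replicate 3 or GC-2 replicate 1. With the replicate block the counts were 23, 10, 12, 9, 7 and 8, the 2 added calls being Cep95 and Mum1l1, and no call was lost. Leaving out slide 1, an alternative chosen after seeing the data, gave 25, 11, 15, 8, 8 and 10. All 36 named differences kept their direction under every alternative, and 25 fell below the limit at 5-fold, 11 with normexp and 3 with the study's constants. With the constants, the calls lost were Pask, Gm15091 and Pbk. For the lines against testis, members with all arrays above were 44, 44 and 46 in F9, GC-1 and GC-2 and all below 32, 41 and 39. The 75th percentile of probes detected on all 24 arrays gave 24, 24 and 19 above and 71, 68 and 70 below, and the study's constants 23, 26 and 22 above and 65, 64 and 58 below. With the first, 36.6%, 37% and 34.4% of the commonly detected probes lay above and 40.3%, 39.7% and 39.9% below. With the constants, 36.6%, 43.2% and 42.9% of them lay above and 33.7%, 30.8% and 28.3% below. Leaving out 1 array gave 44 to 50, 44 to 47 and 46 to 50 above and 32 to 40, 41 to 47 and 39 to 45 below. The number of members was 104, 184 with the flag for a positive and significant signal, 122 with 2 of 3 arrays per line, and 104 to 110 without 1 line array. The cause of these shifts was not tested. The planned change of window for promoter motif counts was not run, since the count itself was void. Signal over background limits the dim members, and 11 of them set no lower limit on the excess of testis.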
